A study of Homo sapiens with 6 samples.

Results

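FOXA1 and FOXA2 are the pioneer transcription factors of the forkhead box A family that mark the floor plate, the ventral midline from which midbrain dopamine neurons arise. The pair was followed through 2 histone marks, H3K4me3 and H3K27me3, on hg19. The members were the peaks that overlapped a window on chromosome 14 from 38045 to 38080 kb for FOXA1 or a window on chromosome 20 from 22545 to 22585 kb for FOXA2. The windows held 24 of the 142800 peaks in the 4 deposited lists.

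The cells were neural progenitors on day 11 of differentiation toward midbrain dopamine neurons, all derived from H9, an established line of human embryonic stem cells. Boost-Chir cultures received CHIR99021 at 7.5 µM from day 4 to day 10. For Low-Chir cultures the labels give no concentration over these days. All cultures started in SHH C25II, LDN, SB431542, Rock inhibitor and 0.7 µM CHIR99021. LDN, SB431542 and SHH were withdrawn before the boost ended. From day 10 all were given 3 µM CHIR99021 with BDNF, GDNF, TGFβ3, ascorbic acid and dibutyryl cAMP. Each mark was measured by chromatin immunoprecipitation and sequencing in 1 library per condition, so no difference below has a replicate check and no test was made. The Boost-Chir and Low-Chir lists held 46793 and 44022 H3K4me3 peaks and 26260 and 25725 H3K27me3 peaks. As estimated from the genome background of the libraries, sequencing depth in Boost-Chir relative to Low-Chir was 1.21 for H3K4me3 and 0.971 for H3K27me3. No read counts were used for this estimate.

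FOXA proteins bind their sites in closed chromatin and open it for other factors. In the ventral neural tube FOXA2 is induced by Sonic hedgehog through GLI factors, and in the mouse both genes act in the specification and survival of midbrain dopamine neurons. H3K4me3 is found at promoters that are active or poised, and broad H3K4me3 domains are known from genes that define a cell's identity. H3K27me3 is deposited by Polycomb repressive complex PRC2 at silenced developmental genes. CHIR99021 inhibits the kinase GSK3 and so activates canonical WNT signalling.

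Both genes lie on the minus strand, and in the RefSeq order of GRCh38.p14 each has a neighbour taken here as its partner. FOXA1 is followed by TTC6, a protein-coding gene on the opposite strand, and FOXA2 is preceded by LINC00261, a long noncoding RNA gene on the same strand. On its other side FOXA2 is followed by LNCNEF, also a long noncoding RNA gene. RefSeq promoters of 300 bases around the transcript start were matched for FOXA1, TTC6 and LINC00261, and none for FOXA2. The sequences of FOXA1 and LINC00261 are shown because they are the promoter of a member and that of the partner of the other member. They are read 5′ to 3′ on GRCh38.p14, minus strand. In FOXA1 the capitals mark the 121 bases that also lie in the TTC6 promoter on the other strand, and in LINC00261 they mark a match to the FOXA core TGTTTAC on the opposite strand.
FOXA1: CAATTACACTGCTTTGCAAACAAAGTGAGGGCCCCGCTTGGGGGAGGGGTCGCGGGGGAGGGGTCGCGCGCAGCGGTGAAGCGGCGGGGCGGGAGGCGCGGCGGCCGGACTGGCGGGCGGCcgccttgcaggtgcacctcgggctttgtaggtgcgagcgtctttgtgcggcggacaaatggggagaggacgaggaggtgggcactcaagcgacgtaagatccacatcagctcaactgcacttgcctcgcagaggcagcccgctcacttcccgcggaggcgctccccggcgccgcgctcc
LINC00261: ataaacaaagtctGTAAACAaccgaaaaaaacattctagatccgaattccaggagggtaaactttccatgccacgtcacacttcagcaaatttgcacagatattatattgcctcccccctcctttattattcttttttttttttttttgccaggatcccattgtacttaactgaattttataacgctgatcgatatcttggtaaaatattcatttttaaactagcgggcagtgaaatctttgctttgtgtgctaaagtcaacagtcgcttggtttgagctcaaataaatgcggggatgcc
The FOXA1 promoter had 69.3% G+C and 34 CpG dinucleotides, and the LINC00261 promoter had 37.0% and 8. The medians over all 35116 promoters of the table were 58.7% and 14. The GC box GGGCGG, searched on both strands like every motif here, occurred 2 times in the FOXA1 promoter and 0 times in that of LINC00261, and 45.0% of all promoters held it. The FOXA core, searched only as TGTTTAC, occurred 0 times in the FOXA1 promoter and 1 time in that of LINC00261, against 3.42% of all promoters. Variants of this string were not searched, so the FOXA1 promoter cannot be said to lack a FOXA site. The TATA box TATAAA occurred 0 times in FOXA1 and 1 time in LINC00261, there on the strand opposite to the gene, against 11.5% of all promoters. The TCF/LEF core was searched only as CTTTGA, 1 form of the motif of the factors that carry canonical WNT signalling. This string was in neither of these windows, and 12.9% of all promoters held it. Other forms of the motif were not searched, so the promoters cannot be said to lack TCF/LEF sites. The promoters could not be placed among the peaks, because the peaks are on hg19.

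At FOXA1, H3K4me3 formed a single broad block in both conditions. Peaks covered 17.0 kb of the window in Boost-Chir and 17.6 kb in Low-Chir, several times the 5.70 kb of the gene in RefSeq. Without gene positions on hg19, the block could not be divided between FOXA1 and its partner TTC6. The block was made of 2 peaks in Boost-Chir and 3 in Low-Chir. The leading Boost-Chir peak ran from 38052510 to 38064326 and had a fold enrichment of 14.3. Fold enrichment is the authors' value for a peak, and the values of the lists are given back when it is read as summit reads over local background with 1 added to each. The leading Low-Chir peak ran from 38052644 to 38064264 and had a fold enrichment of 12.9. At 11817 bp in Boost-Chir and 11621 bp in Low-Chir, these single peaks ranked 17th of 46793 and 3rd of 44022 by length. Both stood high in their lists by fold as well, with 3.60% of Boost-Chir peaks and 3.53% of Low-Chir peaks above them.

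The second FOXA1 peak began at 38064478 in Boost-Chir and at 38064484 in Low-Chir. Its fold was 10.8 in Boost-Chir and 10.2 in Low-Chir, with 41 reads at the summit in each. Between the first and the second peak lay 151 bp, from 38064327 to 38064477, that no H3K4me3 peak of either list covered. In Low-Chir 1 more peak, of 2695 bp with a fold of 6.33, carried the block on to 38070562, while the second Boost-Chir peak ended at 38069689. That end made up the whole loss at FOXA1: 873 bp were covered in Low-Chir alone, as 1 stretch from 38069690 to 38070562. The 266 bp covered in Boost-Chir alone were spread over 4 stretches, the longest of 134 bp at the other end of the block. In all, 16763 bp were covered in both conditions.

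At FOXA2, H3K4me3 was broader still and more divided. Peaks covered 19.6 kb of the window in Boost-Chir and 22.0 kb in Low-Chir. In RefSeq the gene has 4.49 kb and its partner LINC00261 has 18.1 kb, and the block could not be divided between them. The block was made of 9 peaks in Boost-Chir and 8 in Low-Chir. One part was nearly the same in both lists: a peak from 22547150 to 22552248 in Boost-Chir had a fold of 12.95, and a peak from 22547089 to 22552195 in Low-Chir had a fold of 12.6. The longest peak differed. In Boost-Chir it ran unbroken from 22556011 to 22566241, 10231 bp with a fold of 15.1. The same stretch held parts of 2 Low-Chir peaks, 5953 bp with a fold of 14.1 and 7250 bp with a fold of 10.2, which were 78 bp apart.

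The highest FOXA2 summit thus had another place in each condition. It lay at 22564224 in Boost-Chir and at 22556764 in Low-Chir, 7460 bp apart. At FOXA1 the highest summits lay at 38063079 in Boost-Chir and at 38060000 in Low-Chir, 3079 bp apart. Within such long peaks several places have similar read numbers. The second of these long Low-Chir peaks at FOXA2, for example, had 49 reads at its own summit at 22561789, more than the 45 reads at the summit of highest fold.

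**Figure D1:**
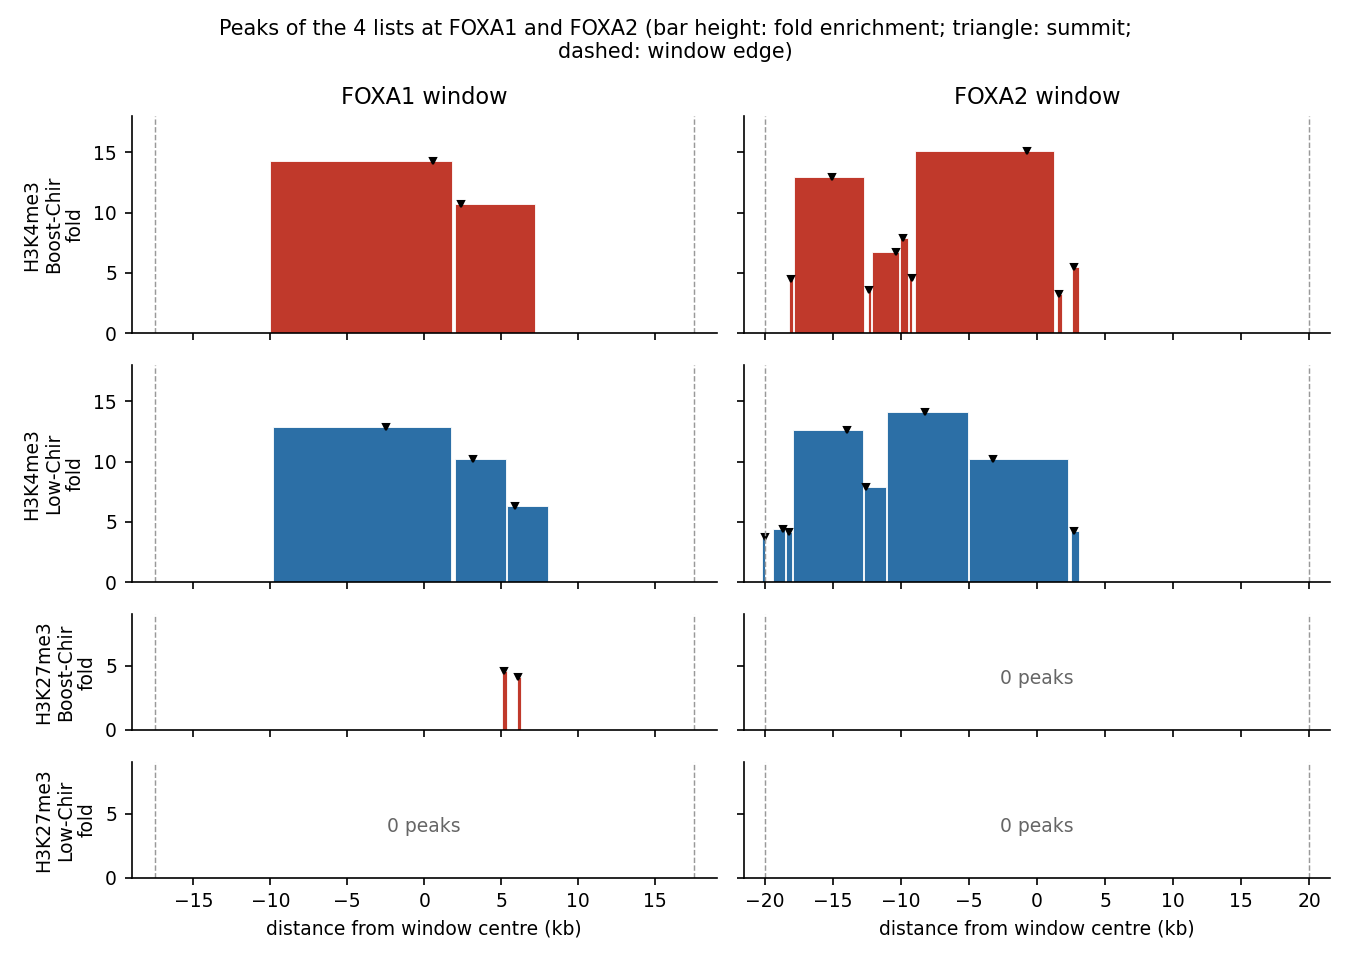
Peaks of the 4 lists in the FOXA1 and FOXA2 windows, by distance from the window centre (kb); each bar spans a peak, its height is the fold enrichment (a ratio), triangles mark summits and dashed lines the window edges. H3K4me3 fills the same part of each window in Boost-Chir (red) and Low-Chir (blue), and H3K27me3 has 2 short peaks, both at FOXA1 in Boost-Chir.

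The remaining FOXA2 peaks were short. Between the matching peak and the longest one, Boost-Chir had 4 peaks of 221 to 1946 bp with folds of 3.60 to 7.90. Between the matching peak and the next long one, Low-Chir had a single peak of 1653 bp with a fold of 7.88. At the lower edge of the window Low-Chir had 3 peaks of 221 to 896 bp with folds of 3.77 to 4.37, and Boost-Chir had 1 of 300 bp with a fold of 4.52. At the upper end, Boost-Chir had peaks of 407 and 537 bp with folds of 3.24 and 5.48, and Low-Chir had a peak of 600 bp with a fold of 4.21. Bases under H3K4me3 in Low-Chir alone came to 2536 at FOXA2, in 13 stretches, of which the longest was 896 bp from 22545597 to 22546492 at the lower edge. Bases under H3K4me3 in Boost-Chir alone came to 197. In all, 19420 bp were covered in both conditions.

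The edge of the FOXA2 window passed through weak signal. A Low-Chir peak from 22544821 to 22545041 with a fold of 3.77 crossed it and counted as a member. Just outside were Boost-Chir peaks at 22541598 (288 bp, fold 4.26) and 22542465 (416 bp, fold 3.43), and Low-Chir peaks at 22541675 (200 bp, fold 3.32) and 22543190 (200 bp, fold 3.00). With these included, the joined FOXA2 locus held 20.3 kb of H3K4me3 in Boost-Chir and 22.5 kb in Low-Chir. No H3K4me3 peak lay within 10 kb outside the FOXA1 window.

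H3K27me3 was nearly absent from both genes. FOXA2 had 0 peaks of the mark in Boost-Chir and 0 in Low-Chir. FOXA1 had 2 peaks in Boost-Chir and 0 in Low-Chir. The Boost-Chir peaks were short and weak: 336 bp from 38067560 with a fold of 4.60 and 18 reads at the summit, and 261 bp from 38068527 with a fold of 4.14 and 16 reads. In their list 36.0% and 56.1% of peaks had a higher fold, and neither was in the top 25% of the list by −log10 q. Both lay inside the second H3K4me3 peak of Boost-Chir, so 597 bp were under both marks, against 0 bp in Low-Chir. The first H3K27me3 peak overlapped the end of the second Low-Chir H3K4me3 peak and the start of the last, and the other lay inside the last. Neither reached the stretch from 38069690 that H3K4me3 covered in Low-Chir alone. The weakest summit in the Low-Chir H3K27me3 list had 12 reads, and signal under the calling threshold is not shown by a peak list. Bulk cultures were measured, so both marks at a place need not be on the same chromosome or in the same cell, and a smaller share of cells with a mark cannot be told apart from less of the mark per cell.

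An H3K4me3 locus that gained H3K27me3 in this sense, with peaks in Boost-Chir and none in Low-Chir, was uncommon: FOXA1 was 1 of 470 among 16580 H3K4me3 loci, or 2.83%. Loci here are the peaks of both lists joined within 3 kb. Of the 155 loci with a mean H3K4me3 length of at least 10 kb over the conditions, 3 (1.94%) were of this kind. The reverse, peaks in Low-Chir and none in Boost-Chir, was more frequent, at 611 of all loci and 5 of the 155. Of the 35 loci of at least 15 kb, 2 (5.71%), FOXA1 among them, had the mark in Boost-Chir only. Another 2 of these had it in Low-Chir only. This breadth was chosen after the values had been seen. H3K27me3 was absent in both conditions from 119 of the 155, FOXA2 among them, or 76.8%, so freedom from the mark was common among broad loci.

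Few loci in these cells carried as much H3K4me3. By covered length FOXA2 ranked 16th of 16580 loci in Boost-Chir and 5th in Low-Chir, and FOXA1 ranked 37th and 14th. Of 15529 genome tiles as wide as the FOXA1 window that held the mark, 0.174% had at least as many covered bases in Boost-Chir as FOXA1 and 0.0258% in Low-Chir. For FOXA2, the shares of 14883 tiles were 0.0873% in Boost-Chir and 0.0202% in Low-Chir. The tiles lie on a grid set by the member's window. Other broad loci can be split between tiles while the member's block is nearly whole, which can lower these shares. FOXA2 exceeded FOXA1 by 2588 bp in Boost-Chir and by 4320 bp in Low-Chir, a ratio of 1.15 and 1.24.

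Both loci were slightly shorter in Boost-Chir, whereas most H3K4me3 loci were longer there. The Boost-Chir length was 0.966 times the Low-Chir length at FOXA1 and 0.893 times at FOXA2. The covered length of the window fell by 607 bp at FOXA1 and fell by 2339 bp at FOXA2. With only the top 25% of each list by −log10 q, the ratio at FOXA1 was 1.14 and that at FOXA2 was 0.837, so the direction at FOXA1 rests on its weaker end. The median ratio over the 14475 loci in both lists was 1.28, and 5% of loci had ratios below 0.717. H3K4me3 was shorter in Boost-Chir by any amount at 3355 loci, or 20.2%. Among the 155 loci of at least 10 kb it was shorter at 20, or 12.9%, and the median ratio was 1.24. In the order of these 155 ratios from the lowest, FOXA2 was 5th at 0.902 for the whole locus, and FOXA1 was 14th.

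The same count was made at other breadths. With a mean length of at least 15 kb there were 35 loci, and the 2 that were shorter in Boost-Chir were FOXA1 and FOXA2. With at least 17 kb there were 21 loci, and these were again the 2 shorter ones. With at least 20 kb there were 13 loci, of which 1 was shorter, FOXA2. With at least 12 kb, 12 of 84 loci were shorter, so the contrast depends on the breadth asked for, and these breadths were chosen after the values had been seen. Neither gene passed the limits set for a change in length, a ratio of at least 1.5 with at least 1 kb. Of the H3K4me3-holding tiles of the FOXA1 width, 16.6% were longer and 1.06% shorter in Boost-Chir by these limits. Of those of the FOXA2 width, 16.7% were longer and 1.05% shorter. For H3K27me3 the 597 bp at FOXA1 fell short of 1 kb, while of the 7102 tiles of its width that held H3K27me3, 6.59% were longer in Boost-Chir by the same limits and 12.1% shorter. FOXA2 held no H3K27me3 and so was not among the 6826 tiles of its width with the mark, of which 6.65% were longer in Boost-Chir. The differences at both genes were thus small, and without replicates they cannot be set against the spread between cultures. The Boost-Chir H3K4me3 library was the deeper one by its genome background, and its list was the longer one.

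**Figure D2:**
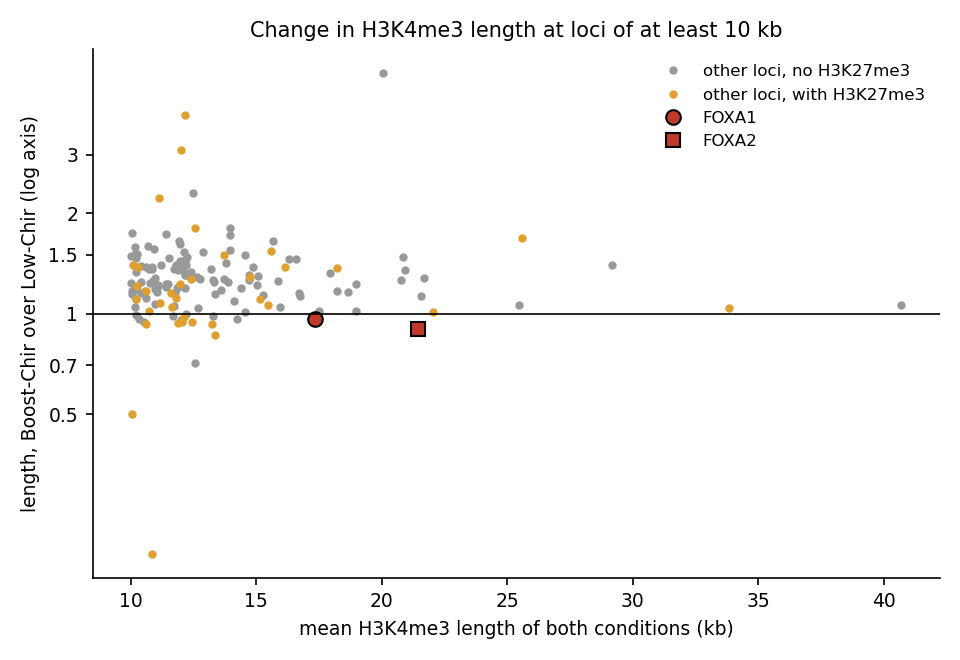
Ratio of H3K4me3 length in Boost-Chir over Low-Chir (log axis) against the mean length of both conditions (kb) for the 155 loci of at least 10 kb; each point is a locus, and the line marks equal length. FOXA1 at 0.966 and FOXA2 at 0.902 lie below the line, the only loci of at least 15 kb that do, a breadth chosen after the values had been seen; a locus of 14.2 kb at 0.966 and one of 22.0 kb at 1.01 lie nearby.

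The block was kept in place more closely than at most broad loci. Of the bases under H3K4me3 in either condition, 93.6% were covered in both at FOXA1 and 84.4% at the FOXA2 locus. These shares ranked 2nd and 15th among the 155 broad loci, whose median was 67.2%. A locus that widened in Boost-Chir has a lower share by construction, so this measure follows in part from the ratio of lengths.

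The height of the signal was close between conditions. The top fold was 14.3 in Boost-Chir and 12.9 in Low-Chir at FOXA1, and 15.1 in Boost-Chir and 14.1 in Low-Chir at FOXA2. At FOXA1 the highest-fold summit had 57 reads in Boost-Chir (exact Poisson 95% interval 43.2 to 73.9) and 52 in Low-Chir (38.8 to 68.2). At FOXA2 it had 58 reads in Boost-Chir (44.0 to 74.98) and 45 in Low-Chir (32.8 to 60.2). These intervals cover counting error only and overlap at each gene. Each summit was picked as the highest in fold of its own list, which the intervals leave out of account. The summits of the conditions also lie 3079 bp apart at FOXA1 and 7460 bp apart at FOXA2. The overlap is therefore no comparison at a fixed place.

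Scaled to depth, the order at FOXA1 turned. Reads above background, divided by the genome background of the library, came to 20.2 in Boost-Chir and 22.1 in Low-Chir at FOXA1, a ratio of 0.913. At FOXA2 they came to 20.6 in Boost-Chir and 19.3 in Low-Chir, a ratio of 1.07. Scaled instead by the median of loci in both lists, these ratios were 0.839 at FOXA1 and 0.980 at FOXA2, so the order at FOXA2 depended on the scaling. The Low-Chir summit at 22561789 in FOXA2 had 20.4 on the first scale, close to the 20.6 of Boost-Chir. The median ratio over the 14475 loci in both lists was 1.09, with 5% of loci below 0.713 and 5% above 1.55. FOXA1 had a lower ratio than most loci, with 20.7% of loci lower still, and FOXA2 was close to the median, with 46.2% lower.

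**Figure D3:**
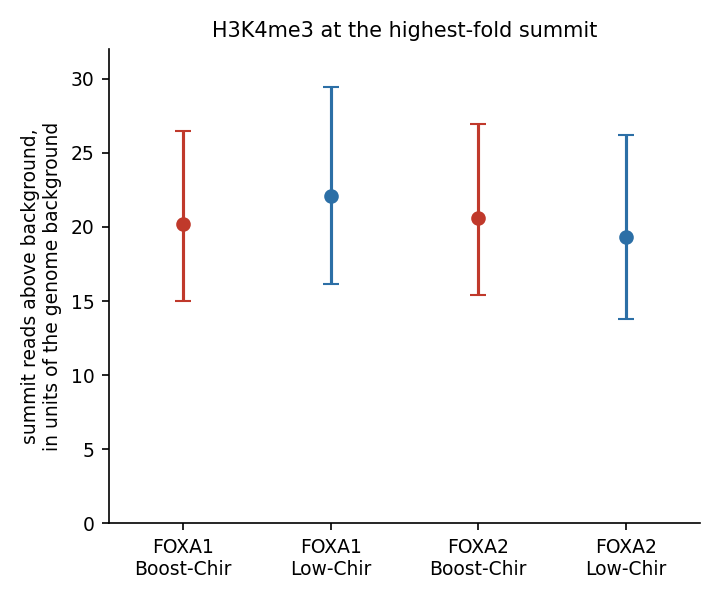
H3K4me3 reads above the local background at the summit of highest fold, in units of the genome background of each library, for Boost-Chir (red) and Low-Chir (blue); bars are exact Poisson 95% intervals. The values lie between 19.3 and 22.1, and the intervals overlap, though the summits were picked in each list and lie at different places.

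The nearest H3K4me3 peak below the FOXA1 window was 318 kb away in Boost-Chir and 376 kb in Low-Chir, and above it 597 kb and 596 kb. Over the 500 kb below the FOXA1 window H3K4me3 covered 8190 bp in Boost-Chir and 5211 bp in Low-Chir, and over the 500 kb above it 0 bp in both. No H3K27me3 peak lay within 500 kb on either side of the FOXA1 window in either condition, the nearest being 579 kb away in Boost-Chir and 596 kb in Low-Chir. At FOXA2, apart from the weak peaks at the lower edge, the nearest H3K4me3 peak above the window was 444 kb away in both conditions. Over the 500 kb below the FOXA2 window H3K4me3 covered 3033 bp in Boost-Chir and 1623 bp in Low-Chir, and over the 500 kb above it 3026 bp and 2806 bp. H3K27me3 appeared 423 kb above the FOXA2 window in Boost-Chir and 426 kb above it in Low-Chir. Within 500 kb above, it covered 8971 bp in Boost-Chir and 14119 bp in Low-Chir. The mark was thus called at the far end of this flank in both cultures, and in the FOXA2 window in neither list.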

How the data were processed

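ChIP-seq for H3K4me3 and H3K27me3 was analysed from 4 peak lists, 1 library per mark and condition; the 2 input samples were not analysed here. Samples were grouped by title. The submitters' processing notes name hg19, cutadapt 1.6, BWA 0.7.12 and Picard; which caller made the peaks, and at what cutoff, is not given in the sources used here. Per the deposited peak names, each library was called against the input of its own condition, with nothing pooled. The deposited lists give a fold enrichment (a ratio), −log10 p-values and −log10 q-values, a summit position and a score, which is the whole part of 10 times the −log10 q and enters no result.

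Peaks were assigned to a window by at least 1 bp of overlap, and covered length was clipped to the window. Summit reads were solved from fold, taken as (reads + 1) over (background + 1), and a Poisson p. They were whole within 0.005 for 100% of peaks of each list, with a step of 1 read for H3K4me3 and a scaled step for H3K27me3. The lowest background of a list, taken as proportional to depth, was 2.67 reads in Boost-Chir and 2.21 in Low-Chir for H3K4me3, and 3.03 and 3.12 for H3K27me3. The code was tested on simulated data. With 1 library per group no p-value was computed. No hg19 annotation was used, so other floor-plate genes planned for comparison were not analysed. Every peak of the windows was accounted for, and the highest-fold and longest ones were named in full. Members, windows and comparisons were chosen with earlier results of these data known. Python 3.11.15, numpy 2.4.6, scipy 1.17.1 and matplotlib 3.10.9 were used. Alternatives to the peak filter, window and scaling are given with the closing observations.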

Additional observations from a re-analysis of the deposited data

How the results depend on the processing

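No paired analysis was possible because there is only 1 library of a mark in each condition. The Boost-Chir over Low-Chir length of H3K4me3 stayed below 1 at FOXA2 under all 9 alternatives, from 0.837 to 0.933. These were not 9 separate checks. Keeping the same number of peaks repeated the main 0.893, both gap fills gave 0.923 and both widenings gave 0.902. At FOXA1 the length ratio stayed below 1 under 8 of 9. Most of these left the FOXA1 H3K4me3 peaks unchanged and gave 0.966 again, so they are no check. Filling gaps gave 0.959. With the top 25% of each list, where the last of the Low-Chir peaks is left out, the ratio at FOXA1 was 1.14. The H3K27me3 at FOXA1 in Boost-Chir, and with it the bases under both marks, came to 336 bp (1 peak) with the top 50% of the list or a −log10 q of at least 5, to 0 with the top 25%, and to 1228 bp with gaps of up to 1 kb or 3 kb filled. The number of H3K4me3 peaks at FOXA2 was 5 in Boost-Chir and 4 in Low-Chir with the top 50%, and 5 in Low-Chir with the window narrowed by 5 kb. Asking for a ratio of at least 2, 4.90% of the FOXA1-width tiles were longer and 0.612% shorter, and 4.93% and 0.585% of the FOXA2-width tiles. Of 200 recomputed values, 181 stayed within 1.5 times the main value. Many of these were 0 in both settings or repeated the main value because no peak was affected, so the share says little about stability. Scaling summit reads by loci of both lists gave Boost-Chir over Low-Chir ratios of 0.839 at FOXA1 and 0.980 at FOXA2, against 0.913 and 1.07 by genome background, so the FOXA2 direction turned. The FOXA1 H3K27me3 peaks rest on 16 and 18 reads, against a list median of 18.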
